A study of Mus musculus with 9 samples.

Results

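The 9 long noncoding RNAs described here are 7 snoRNA host genes, Gas5, Snhg1, Snhg3, Snhg5, Snhg6, Snhg8 and Snhg12, and 2 RNAs that stay in the nucleus, Neat1 and Malat1. They were chosen by name from the 20627 features of the deposited gene count table, after removal of the hyphen and 3 digits that end a gene's name there. All 9 were found, each as 1 row, and all 9 passed the filter on low counts. RNA was sequenced from RAW264.7, a long-established mouse cell line with macrophage properties, as 3 groups of 3 libraries. The NC group is taken as the control, and the sources used here give neither its glucose concentration nor its incubation time. HG cells spent 6 h at a glucose concentration of 35 mmol/l. HG-SIG cells spent the same time at the same concentration together with sitagliptin phosphate, an inhibitor of dipeptidyl peptidase 4. No sitagliptin dose is given in the sources used here, all 9 libraries carry the same batch label, and none of the groups tested osmolarity alone or sitagliptin alone. The title of the series places the comparison in work on macrophage polarization in diabetes.

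Small nucleolar RNAs, or snoRNAs, guide chemical modification and cleavage of ribosomal RNA in the nucleolus, and most vertebrate snoRNAs are cut out of the introns of a host transcript. In the snoRNA host genes the spliced exons do not code for a conserved protein, and many of these spliced RNAs start with a terminal oligopyrimidine tract, the run of C and T letters that also opens ribosomal protein mRNAs and links their translation to growth signals. The spliced host RNAs enter the cytoplasm, where several are removed by nonsense-mediated decay as long as they are translated, and Gas5 takes its name from its accumulation in growth-arrested cells. Neat1 is the scaffold of paraspeckles, nuclear bodies that hold RNA-binding proteins such as NONO, SFPQ and PSPC1. Malat1 is an abundant RNA of nuclear speckles, where splicing factors are stored. The main Malat1 transcript and the long form of Neat1 end in a folded RNA helix in place of a poly(A) tail, whereas these libraries were made from oligo(dT)-selected RNA. How that selection bears on their values was not tested.

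The starts of 5 of these genes are shown because they differ in the run of C and T letters near the annotated start. A terminal oligopyrimidine tract begins at the start of the RNA itself, which was not measured here. Each stretch runs 5′ to 3′ on the gene's strand and holds the 40 bases before an annotated start and the 40 bases from it on. Capitals mark the longest run of C and T within 20 bases of the start. The sequences are those of RefSeq for GRCm38.p6 (mm10), in which 7 of the 9 genes had a promoter entry; Neat1 and Snhg6 had none.
Gas5, second annotated start, chr1:161035126-161035205, plus strand: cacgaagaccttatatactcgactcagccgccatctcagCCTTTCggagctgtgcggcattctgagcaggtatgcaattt
Snhg1, chr19:8723447-8723526, plus strand: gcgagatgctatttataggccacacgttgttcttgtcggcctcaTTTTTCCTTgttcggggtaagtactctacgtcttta
Snhg5, chr9:88522858-88522937, minus strand: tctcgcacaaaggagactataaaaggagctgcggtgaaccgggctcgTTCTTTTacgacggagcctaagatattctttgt
Snhg12, chr4:132308638-132308717, plus strand: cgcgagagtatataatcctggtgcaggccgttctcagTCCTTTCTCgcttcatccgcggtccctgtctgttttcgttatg
Malat1, chr19:5802633-5802712, minus strand: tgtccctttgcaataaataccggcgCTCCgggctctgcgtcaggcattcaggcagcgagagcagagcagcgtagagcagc

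The pyrimidine run was 9 letters long in Snhg1 and Snhg12, a length reached by 10.7% of the 32851 RefSeq promoter windows of the mouse genome. It was 7 letters long in Snhg5 and in Snhg8 (24.3% of windows), 6 in the second start of Gas5 (37.5%), 5 in Snhg3 (57.5%), 4 in Malat1 (78.6%) and 3 in the first start of Gas5 (93.7%); the median window had a run of 5. Counted from the annotated start, the runs shown began at base -1 in the second start of Gas5, -3 in Snhg12, 4 in Snhg1, 7 in Snhg5 and -15 in Malat1. CTTTT or CTTTC, searched on the gene's strand within 20 bases of the start, occurred in 3 of the 8 windows of the 7 genes (Gas5 has 2 annotated starts), those of Snhg5, Snhg12 and the second start of Gas5, and in 9.42% of all windows. CACGTG, the E-box letters, which read the same on both strands, occurred in 0 of the 8 windows over their 300 bases and in 7.15% of all windows. These matches describe letters and are not measured start sites.

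The snoRNAs that the hosts carry show what the spliced RNAs leave behind, and 5 with their boxes are printed. In GENCODE M21 (mm10), Gas5 holds 10 snoRNA entries on its strand, Snhg1 holds 8 and Snhg12 holds 5. Snhg3 and Snhg5 hold 2 each, and Snhg6 and Snhg8 hold 1 each. The entries of Gas5 repeat Snord80 at nearly the same place and include Mir5117, and those of Snhg12 repeat Snora16a. Both hosts thus hold fewer distinct snoRNAs than entries. Box C/D snoRNAs, which guide ribose methylation, carry a C box near the 5′ end and a D box near the 3′ end. Box H/ACA snoRNAs, which guide the change of uridine to pseudouridine, carry an ACA near the 3′ end. Below, capitals mark TGATGA (C box), CTGA (D box) or ACA.
Snord47 of Gas5, chr1:161038082-161038158, plus strand: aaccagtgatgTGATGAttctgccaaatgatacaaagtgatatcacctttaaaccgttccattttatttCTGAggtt
Snord50a of Snhg5, chr9:88521529-88521600, minus strand: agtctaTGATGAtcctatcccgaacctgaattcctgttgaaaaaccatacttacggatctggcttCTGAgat
Snord87 of Snhg6, chr1:9942463-9942549, minus strand: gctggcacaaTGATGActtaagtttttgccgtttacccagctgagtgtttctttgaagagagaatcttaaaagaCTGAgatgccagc
Snord99 of Snhg12, chr4:132310691-132310764, plus strand: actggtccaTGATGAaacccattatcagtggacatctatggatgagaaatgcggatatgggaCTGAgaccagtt
Snora24 of Snhg8, chr3:123507937-123508066, minus strand: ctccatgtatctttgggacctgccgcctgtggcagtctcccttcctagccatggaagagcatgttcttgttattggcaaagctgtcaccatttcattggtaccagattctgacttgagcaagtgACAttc

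Snhg12 is a host of both kinds, with Snord99 as well as H/ACA snoRNAs, while the named snoRNAs of Snhg3 and Snhg8 are H/ACA and those of Snhg5 and Snhg6 are C/D. With the same search, both boxes were found in 69.4% of the 98 annotated genes named Snord and the ACA in 95.2% of the 42 named Snora. Among the entries of the hosts, which repeat Snord80 and Snora16a, it found them in 7 of 9 and 6 of 7. Snord78 of Gas5 and Snord22 of Snhg1 lacked TGATGA, and Snora44 of Snhg12 lacked the ACA. None of the snoRNA entries of the hosts had a row of its own in the count table, so their levels could not be analysed. The values of the 9 RNAs below are those of the host RNAs, Neat1 and Malat1. For Gas5, Snhg1, Snhg5, Snhg8 and Snhg12 the annotated snoRNAs also lie inside an exon of some annotated transcript that keeps an intron; those of Snhg3 and Snhg6 are at least partly intronic.

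Library totals ranged from 23285821 to 31571578 counts, and the members had between 172 counts (Snhg6, HG replicates 2 and 3) and 28541 counts (Malat1, HG-SIG replicate 3) in a library. Levels are given as CPM, counts brought to a common library total and scaled by TMM, a method that aligns libraries on the bulk of their genes. Of 10 macrophage markers 9 were tested, and their summed level was 11100 to 11600 CPM in NC, 10000 to 10800 in HG and 5220 to 5320 in HG-SIG. None of the markers of lymphocytes, epithelial cells or fibroblasts had enough counts to be tested; their sums reached at most 0.201 CPM in a library, and some epithelial sums were 0. Among the macrophage markers Lyz2 had the most counts in each group, so it weighed most in their sum. From the pooled HG libraries to the pooled HG-SIG libraries, its unscaled counts went from 471853 to 272007. Unscaled counts of Cd68, Adgre1, Csf1r, Cd14 and Spi1 were also lower. Those of Itgam (5614 to 5644), Ptprc (18486 to 18614) and Fcgr1 (2614 to 2662) were not. Such counts take no account of library totals. These were 29543475, 26531302 and 23285821 counts in HG and 29232106, 28886288 and 30752927 in HG-SIG. Relative to the pooled totals, Itgam, Ptprc and Fcgr1 were therefore also lower in HG-SIG than in HG. The part of the lower macrophage marker sum in the HG-SIG results was not tested. In these bulk libraries, fewer cells of a kind and less RNA per cell cannot be told apart.

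Neat1 had the largest changes of the 9 RNAs in the 2 comparisons with HG-SIG libraries and fell at both steps. It lies on chr19:5824708-5845478, minus strand, as a long intergenic noncoding RNA. Its level was 787, 662 and 685 CPM in NC replicates 1 to 3, then 554, 508 and 497 CPM in HG, and 263, 273 and 258 CPM in HG-SIG. The 3 groups did not overlap at any point, and the lowest HG library was above the highest HG-SIG library by a wide margin. Group means were 711 ± 66.6, 520 ± 30.4 and 264 ± 7.96 CPM (SD, n = 3 in each group). In the test across all genes (edgeR's quasi-likelihood test with Benjamini-Hochberg adjustment), the log2 fold change was -0.45 ± 0.06 (SE) in HG against NC, with an adjusted p of 0.000114. It was -0.97 ± 0.06 in HG-SIG against HG, with an adjusted p of 6.88e-08 in the same edgeR test, which is 1.97-fold lower. Against NC, HG-SIG was 2.69-fold lower (log2 fold change -1.43 ± 0.06, edgeR adjusted p 8.15e-10). These falls kept their call in all 16 alternative analyses of each comparison, with log2 fold changes of -0.50 to -0.37, -1.002 to -0.76 and -1.48 to -1.17 in the same order. The comparisons share groups of libraries, so they are not independent of each other.

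Malat1 lies 22036 bp from Neat1 on the same strand (chr19:5795690-5802672). When the fit used 1 mean per group alone, its level was not called different in any comparison. It had 511, 489 and 724 CPM in NC, 461, 588 and 850 CPM in HG, and 566, 698 and 851 CPM in HG-SIG. The groups overlapped, and the library numbered 3 was the highest in each of them. The log2 fold change was 0.14 ± 0.21 (SE) in HG against NC and 0.16 ± 0.21 in HG-SIG against HG, with adjusted p of 0.66 and 0.548 in edgeR's test. The 95% interval of the second change ran from -0.29 to 0.60, which includes changes of either sign. For HG-SIG against NC it was 0.29 ± 0.21, with an edgeR adjusted p of 0.239. Single libraries set the sign: without HG replicate 3 the first value became -0.14, and without it HG-SIG against HG was 0.43 with an edgeR adjusted p of 0.0495. With replicate numbers added to the fit, Malat1 was called higher in HG-SIG against HG (edgeR adjusted p 0.0458) and against NC (0.00285). Those numbers were not shown to pair the libraries.

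The spread of Malat1 within groups stood out. Its pooled SD was 0.356 on the log2 scale, against a median of 0.0676 over the 10203 genes whose average log2 CPM was at least 2, and it was larger than that of 99.5% of them. Snhg3 (0.168) and Snhg12 (0.161) came next among the 9 RNAs, and Neat1 (0.0936) was closer to the median. The SD of Neat1 was still larger than that of 73.7% of these genes. It was larger than that of 89.7% of the 3671 genes whose average log2 CPM was at least 6. The ratio of Neat1 to Malat1 CPM was 0.946 to 1.54 in NC, 0.584 to 1.20 in HG and 0.303 to 0.464 in HG-SIG, so that only the HG-SIG libraries lay apart from both other groups. The share of mitochondrial counts was 3.44% to 4.05% over the 9 libraries.

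**Figure D1:**
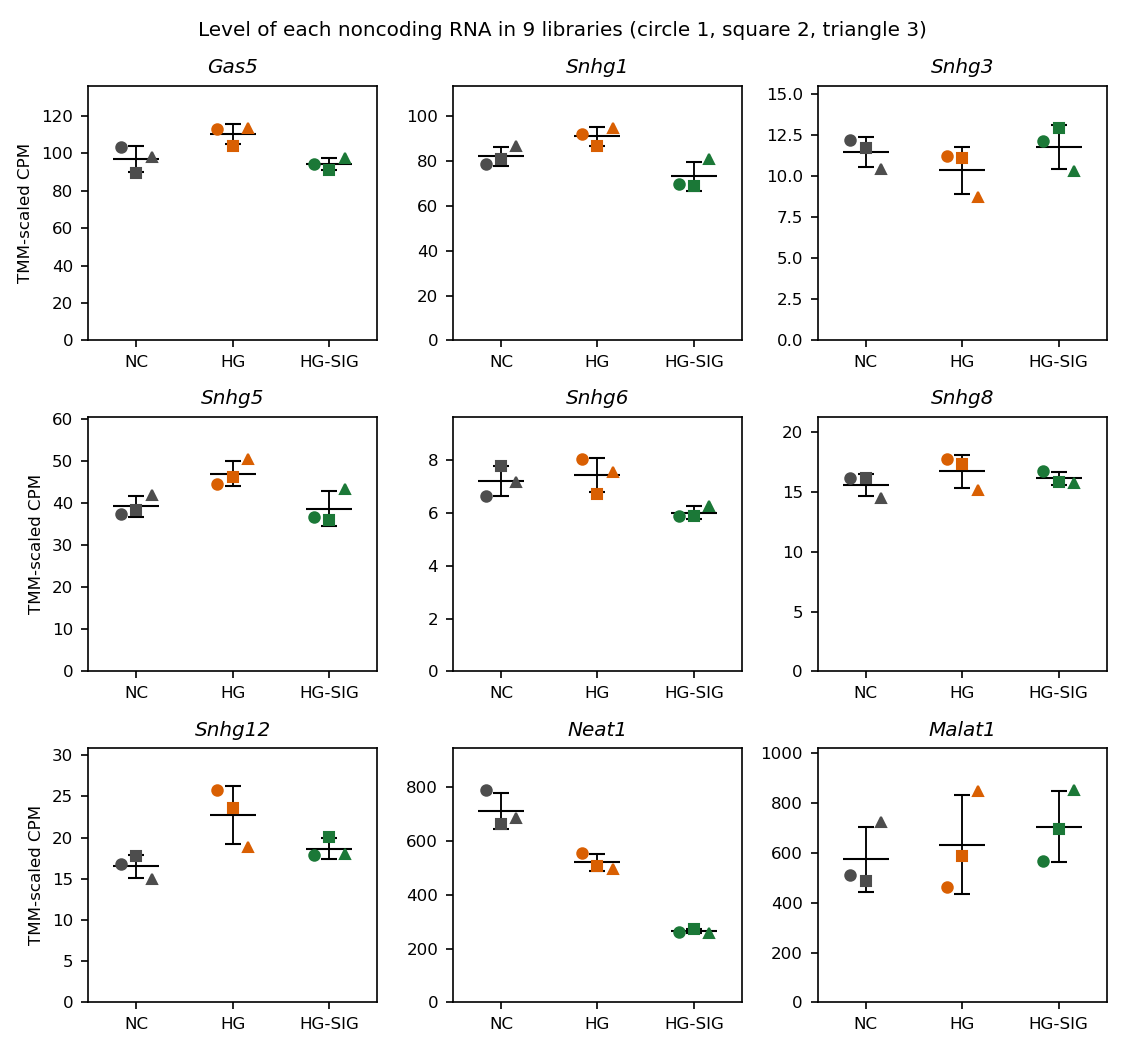
TMM-scaled CPM (vertical axes, from 0) of the 9 noncoding RNAs in the NC, HG and HG-SIG libraries; circles, squares and triangles are replicates 1, 2 and 3, the long bar is the group mean and the error bar 1 SD. Neat1 steps down from 711 through 520 to 264 CPM without overlap, Gas5 and Snhg5 on this scale have every HG library above all others, and in Malat1 the triangle is the highest point of every group.

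Among the hosts, Gas5, Snhg5 and Snhg12 rose in HG against NC. Gas5 (chr1:161034422-161038539, plus strand) had 103, 89.4 and 98.0 CPM in NC, 113.2, 103.9 and 113.3 CPM in HG, and 94.3, 91.3 and 97.4 CPM in HG-SIG. Every HG library was above every library of the other groups, although the lowest HG library exceeded the highest NC library by less than 1 CPM. The means were 96.9 ± 7.00, 110 ± 5.37 and 94.3 ± 3.05 CPM (SD, n = 3). The log2 fold change was 0.18 ± 0.05 (SE) in HG against NC with an edgeR adjusted p of 0.0213, a rise that lost its call without NC replicate 2 (adjusted p 0.0831), HG replicate 1 (0.0728) or HG replicate 3 (0.0525). In HG-SIG against HG it fell by 0.22 ± 0.05 on the log2 scale (edgeR adjusted p 0.00369). HG-SIG and NC were not called different, with a 95% interval of the log2 fold change from -0.16 to 0.08.

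Snhg12, on chr4:132308623-132311024, plus strand, had the largest rise of the hosts in HG against NC. It had 16.8, 17.7 and 14.9 CPM in NC, 25.7, 23.5 and 18.9 CPM in HG and 17.9, 20.1 and 18.0 CPM in HG-SIG. All HG libraries were above all NC libraries, while HG replicate 3 lay between the HG-SIG libraries. The log2 fold change of 0.47 ± 0.10 (SE), or 1.38-fold, had an edgeR adjusted p of 0.0042 and kept its call in all 16 alternatives (0.37 to 0.58). From HG to HG-SIG it fell by 0.29 ± 0.10 on the log2 scale with an edgeR adjusted p of 0.0289. That call was lost without HG replicate 1 (adjusted p 0.153), HG replicate 2 (0.0814), HG-SIG replicate 1 (0.0902) or HG-SIG replicate 3 (0.0845). The 3 HG-SIG libraries were above the 3 NC libraries, with a log2 fold change of 0.18 ± 0.10 that was not called (edgeR adjusted p 0.155).

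Snhg5 (chr9:88521050-88522929, minus strand) had 37.5, 38.3 and 42.0 CPM in NC, 44.7, 46.2 and 50.5 CPM in HG and 36.8, 36.0 and 43.5 CPM in HG-SIG. The HG libraries lay above all others, and the library numbered 3 was the highest of each group. It rose by 0.26 ± 0.07 (log2, SE) in HG against NC with an edgeR adjusted p of 0.0192. Without NC replicate 1 (adjusted p 0.0843), NC replicate 2 (0.0621) or HG replicate 3 (0.0568) the rise was not called. Between HG and HG-SIG it fell by 0.28 ± 0.07 on the log2 scale (edgeR adjusted p 0.0068), and HG-SIG against NC gave -0.02 with a 95% interval of -0.18 to 0.14.

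Snhg1, the host that has Snord22 among its snoRNAs, lies on chr19:8723475-8726443, plus strand. Its levels were 78.7, 80.7 and 86.5 CPM in NC, 91.8, 86.5 and 94.5 CPM in HG and 69.9, 69.0 and 80.7 CPM in HG-SIG. NC replicate 3 and HG replicate 2 were at the same level, and all HG-SIG libraries were below all HG libraries. In HG against NC the log2 fold change of 0.15 ± 0.06 (SE) was not called (edgeR adjusted p 0.085). Snhg1 fell in HG-SIG against HG by 0.31 ± 0.06 on the log2 scale, with an edgeR adjusted p of 0.000917. It was also lower in HG-SIG than in NC (-0.16 ± 0.06, edgeR adjusted p 0.035), a call lost without NC replicate 2 (0.0568), NC replicate 3 (0.142), HG-SIG replicate 1 (0.133) or HG-SIG replicate 2 (0.143).

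Snhg6 (chr1:9941959-9944118, minus strand) had the fewest counts of the 9 RNAs. It had 6.67, 7.80 and 7.19 CPM in NC, 8.04, 6.75 and 7.56 CPM in HG and 5.90, 5.88 and 6.29 CPM in HG-SIG. The HG-SIG libraries lay below both other groups, which overlapped each other. HG against NC gave a log2 fold change of 0.05 (edgeR adjusted p 0.724). It fell by 0.31 ± 0.09 on the log2 scale in HG-SIG against HG (edgeR adjusted p 0.0143), a call lost without HG replicate 1 (0.0715). It fell by 0.26 ± 0.09 against NC (edgeR adjusted p 0.03), a call lost without NC replicate 2 (0.107), NC replicate 3 (0.0653), HG-SIG replicate 1 (0.0784) or HG-SIG replicate 2 (0.0803). Mcmdc2, on the opposite strand, shares 127 bp (11.1%) of its exon length; whether strand was used in counting is not given, and Mcmdc2 itself had 4 to 7 counts in a library.

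Snhg3 and Snhg8 were not called in any comparison by TMM when the fit used 1 mean per group alone. With replicate numbers added to the fit, Snhg3 was called higher in HG-SIG against HG. Snhg8 (chr3:123507552-123508404, minus strand) had means of 15.6 ± 0.936, 16.7 ± 1.37 and 16.1 ± 0.542 CPM in NC, HG and HG-SIG (SD, n = 3), and its 95% interval in HG-SIG against HG was -0.21 to 0.10. Snhg3 (chr4:132348014-132353686, minus strand) had 11.5 ± 0.919, 10.3 ± 1.42 and 11.8 ± 1.34 CPM. Its log2 fold changes were -0.14 ± 0.11 in HG against NC (edgeR adjusted p 0.396) and 0.18 ± 0.11 in HG-SIG against HG (0.198), the signs opposite to those of the called hosts. In both genes the library numbered 3 was the lowest of each group. The Snhg3 value is uncertain, because 71.5% of its exon length is also exon of Gm17300 on the opposite strand and 13.7% is exon of Rcc1 on the same strand. Rcc1, which was called lower in HG-SIG against HG (-0.21 ± 0.04, edgeR adjusted p 0.000468), had 2942 to 3942 counts in a library, against 198 to 402 for Snhg3.

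Of the 9 RNAs, 3 were called higher and 1 lower in HG against NC. Of all 13311 genes tested, 29.5% were called there, 14.3% higher and 15.2% lower. In HG-SIG against HG 0 were called higher and 6 lower, beside 52.5% of all genes called, 25.7% higher and 26.8% lower. In HG-SIG against NC 3 were called lower and 0 higher, beside 58.6% of all genes called, 29.9% higher and 28.7% lower. For the 7 hosts alone the counts were 3 higher, 0 lower and 4 not called in HG against NC. They were 0, 5 and 2 in HG-SIG against HG, and 0, 2 and 5 in HG-SIG against NC. The median log2 fold changes of the 7 hosts were 0.15, -0.28 and -0.02 in the same order, beside 0.00, 0.01 and 0.02 for all genes tested. Groups without any overlap of library values were seen in HG against NC for 4 of the 9 RNAs, 3 higher and 1 lower, and for 41.7% of all genes, 20.8% higher and 20.8% lower. The number was 5 in HG-SIG against HG, all lower, beside 58.7% of all genes (28.8% lower). It was 3 in HG-SIG against NC, 1 higher and 2 lower, beside 65.9% of all genes (34.2% higher and 31.7% lower).

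The falls of the hosts in HG-SIG against HG depended for their calls on how libraries were scaled, whereas Neat1 was called lower under each scaling (-0.97 by TMM, -0.81 by library size alone). Scaling by library size alone moved the median log2 fold change of all genes up by 0.16 in HG-SIG against HG and by 0.19 in HG-SIG against NC, and raised the share of higher calls from 48.9% to 76.9% and from 51% to 76.2%. In HG against NC that share rose from 48.4% to 58.9%. Under that scaling the log2 fold changes of Gas5 (-0.06), Snhg1 (-0.15), Snhg5 (-0.12), Snhg6 (-0.15) and Snhg12 (-0.13) in HG-SIG against HG kept their sign but were not called, with edgeR adjusted p from 0.0563 to 0.361. Snhg8 changed sign to 0.10 (edgeR adjusted p 0.23), and Snhg3 (0.34) was called higher with an edgeR adjusted p of 0.0169. In HG-SIG against NC, Gas5 (0.15), Snhg8 (0.24) and Snhg12 (0.37) were then called higher, with edgeR adjusted p of 0.033, 0.00955 and 0.00615, while Snhg1 (0.03) and Snhg6 (-0.07) were not called. In HG against NC the calls of Gas5, Snhg5 and Snhg12 were the same under both scalings, and Snhg1 (0.18) was also called higher by library size alone (edgeR adjusted p 0.0489). The summed level of the 7 hosts was 269 ± 6.26 CPM in NC, 305 ± 8.95 CPM in HG and 259 ± 11.4 CPM in HG-SIG by TMM. As a share of all counts it was 0.0256%, 0.0296% and 0.0281%, with HG (0.0284% to 0.0304%) and HG-SIG (0.0271% to 0.0297%) overlapping.

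**Figure D2:**
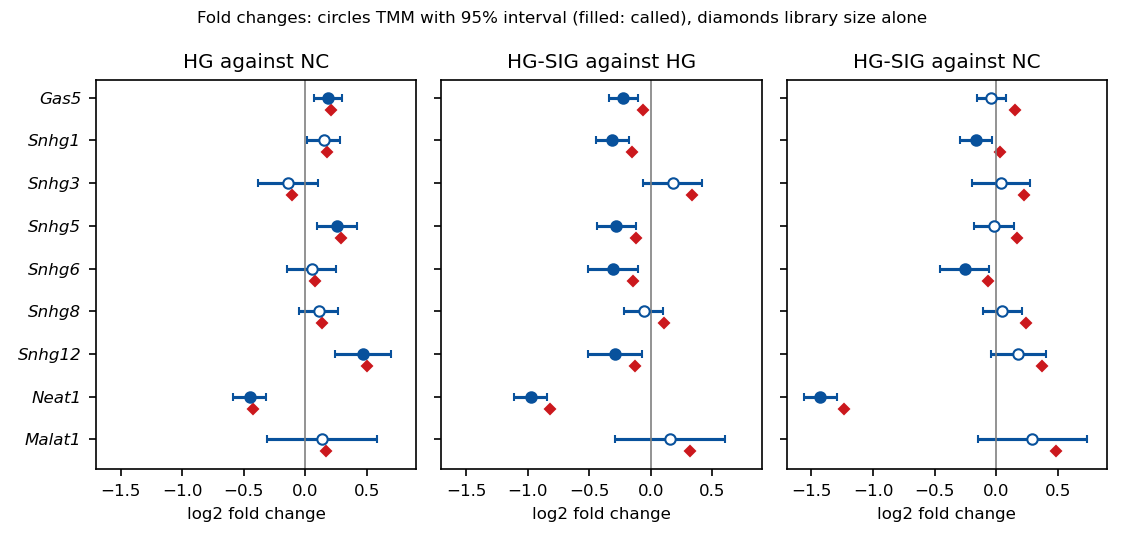
Log2 fold changes of the 9 RNAs in the 3 comparisons (horizontal axes); circles are TMM-scaled estimates with 95% intervals, filled where called, and diamonds are estimates scaled by library size alone. Neat1 is filled and left of 0 in all panels under both scalings, whereas in HG-SIG against HG the diamonds of the 5 filled hosts lie closer to 0, where they were not called, and Snhg8 changes sign.

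**Figure D3:**
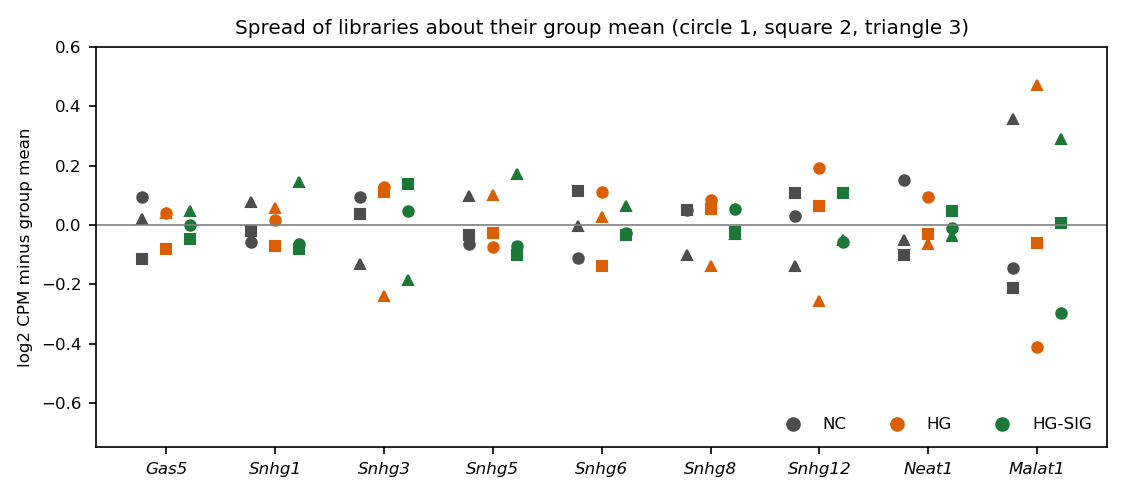
Deviation of each library's log2 CPM from its group mean (vertical axis) for the 9 RNAs, with circles, squares and triangles for replicates 1, 2 and 3 and colours for groups. Malat1 has the widest spread, with every triangle above 0, while the triangles of Snhg3 and Snhg8 lie below 0 in all groups.

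Per kilobase of annotated exon, which here includes introns kept in some transcripts, Malat1 had the highest level of the 9 in every group (82.3 ± 18.6, 90.7 ± 28.4 and 101 ± 20.4 RPKM in NC, HG and HG-SIG). The table names its rows after transcripts, and whether a row covers all transcripts of the gene is not given in the sources used here. For several genes the exon length used far exceeded that of the transcript that names the row. The lengths were 20771 bp against 1030 for Neat1, 6983 against 485 for Malat1, 3760 against 572 for Gas5 and 2969 against 408 for Snhg1. The order of levels between genes, with the place of Malat1, therefore depends on the length chosen and is approximate. In NC, Neat1 came next with 34.2 ± 3.21 RPKM, then Snhg1 (27.6), Gas5 (25.8) and Snhg5 (22.7), where neighbours overlapped, then Snhg8 (18.3), Snhg3 (11.6) and an overlapping last pair, Snhg12 (6.87) and Snhg6 (6.30). In HG, Neat1 (25.02 RPKM) came after Snhg1 (30.6), Gas5 (29.3) and Snhg5 (27.2), and these 4 overlapped as neighbours in level, while Neat1 did not overlap Snhg8 (19.6). In HG-SIG, Neat1 (12.7 RPKM) ranked below Snhg8 (18.9) and overlapped Snhg3 (11.9).

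The list counts that follow are to be read beside all genes tested. Of those, 14.3% were higher and 15.2% lower in HG against NC, and 25.7% higher and 26.8% lower in HG-SIG against HG. Some lists share genes and are not separate sets. Eef2, Eef1b2, Rack1 and Tpt1 are both protein-coding snoRNA hosts and listed translation genes. Nop56, Nop58 and Dkc1 are both hosts and snoRNA particle proteins, and Hnrnpa1 is in the translation and paraspeckle lists. Other noncoding snoRNA hosts, from a list of 14 names, gave 11 tested rows, with Snhg4 in 2 of them. Snhg7 had no row, and Snhg9, Snhg10 and Snhg11 had too few counts to be tested. The Snhg4 rows gave log2 fold changes of 0.18 and -0.17 in HG-SIG against HG, neither called. In HG against NC 2 of the 11 rows were higher, 0 lower and 9 not called, with a median log2 fold change of 0.08. Snhg15 rose from 23.1 ± 0.473 to 27.7 ± 2.35 CPM (SD, n = 3; edgeR adjusted p 0.014), and Snhg16 from 20.6 ± 0.732 to 24.5 ± 1.32 CPM (edgeR adjusted p 0.0188). Against HG, in HG-SIG 0 were higher, 6 lower and 5 not called (median -0.27), but by library size alone 0 were lower and 1 higher. Snhg15 (22.5 ± 1.75 CPM in HG-SIG), Snhg16 (20.1 ± 1.93 CPM) and Zfas1, which hosts C/D snoRNAs and fell from 29.4 ± 2.68 to 24.5 ± 0.624 CPM, were among the 6, with edgeR adjusted p of 0.00312, 0.00496 and 0.00645.

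Protein-coding snoRNA hosts, 38 genes that include ribosomal proteins and nucleolar factors, were mostly not called in HG against NC, with 5 higher, 1 lower and 32 not called (median log2 fold change 0.02). In HG-SIG against HG 0 were higher, 27 lower and 11 not called (median -0.23), beside 26.8% of all genes lower, and by library size alone 5 were higher and 9 lower. Dkc1, the pseudouridine synthase of H/ACA particles and itself a host, had 208 ± 5.46, 249 ± 9.98 and 189 ± 3.14 CPM in NC, HG and HG-SIG (SD, n = 3). It rose by 0.26 ± 0.04 on the log2 scale in HG against NC (edgeR adjusted p 0.000237) and fell by 0.40 ± 0.04 in HG-SIG against HG (2.87e-06). Genes of the translation machinery other than ribosomal proteins that carry a terminal oligopyrimidine tract, 19 in all, gave 1 higher, 1 lower and 17 not called in HG against NC (median -0.02). They gave 0 higher, 16 lower and 3 not called in HG-SIG against HG (median -0.21), again beside 26.8% lower, and by library size alone 1 higher and 3 lower. Eif4b, an initiation factor, fell from 811 ± 12.6 to 646 ± 10.8 CPM (log2 fold change -0.33 ± 0.03, edgeR adjusted p 5.32e-06).

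The proteins that build snoRNA particles gave 2 higher, 0 lower and 17 not called among 19 tested in HG against NC (median log2 fold change 0.07). They gave 1 higher, 11 lower and 7 not called in HG-SIG against HG (median -0.17), and by library size alone 5 higher and 6 lower. Nolc1, a nucleolar chaperone of snoRNA particles, was at 318, 326 and 314 CPM in NC, 366, 368 and 368 CPM in HG, and 285, 277 and 278 CPM in HG-SIG. The 3 groups did not overlap, and HG was the highest. Nolc1 rose by 0.20 ± 0.03 (log2, edgeR adjusted p 0.000417) in HG and fell by 0.39 ± 0.03 in HG-SIG against HG (6.76e-07). Factors of nonsense-mediated decay and the exon junction gave 3 higher, 1 lower and 14 not called of 18 in HG against NC. They gave 4 higher, 2 lower and 12 not called in HG-SIG against HG, where library size alone gave 10 higher and 0 lower. Magohb, of the exon junction, fell from 12.0 ± 1.46 to 8.11 ± 1.04 CPM in HG (log2 fold change -0.56 ± 0.11, edgeR adjusted p 0.00176). Upf1, the helicase of that decay pathway, rose from 107 ± 0.925 to 115 ± 4.21 CPM in HG (0.12 ± 0.04, edgeR adjusted p 0.029). In HG-SIG against HG, Upf1 fell by 0.09 ± 0.04 on the log2 scale (edgeR adjusted p 0.0441). Upf3a, a regulator of the same pathway, rose from 38.1 ± 1.03 in HG to 43.8 ± 1.17 CPM in HG-SIG (0.20 ± 0.04, edgeR adjusted p 0.00207).

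Paraspeckle proteins, the partners of Neat1, did not share one direction. Of 24 tested, 7 were higher, 1 lower and 16 not called in HG against NC (median log2 fold change 0.04), and 6 higher, 12 lower and 6 not called in HG-SIG against HG (median -0.08). By library size alone the latter counts were 11 higher and 4 lower. Pspc1, a core paraspeckle protein, was at 46.0, 46.5 and 51.6 CPM in NC, 58.1, 57.2 and 57.6 CPM in HG, and 26.3, 24.6 and 27.2 CPM in HG-SIG. HG was above NC and HG-SIG below both, with no overlap. Pspc1 rose by 0.26 ± 0.05 on the log2 scale in HG against NC (edgeR adjusted p 0.00186), the comparison in which Neat1 fell. It fell by 1.15 ± 0.05 in HG-SIG against HG (edgeR adjusted p 3.43e-09) and by 0.88 ± 0.05 in HG-SIG against NC (2.13e-08). Hnrnph1, an RNA-binding protein of the same bodies, was higher at each step, from 581 ± 23.9 through 724 ± 13.9 to 839 ± 31.0 CPM (SD, n = 3), with edgeR adjusted p of 7.65e-05 in HG against NC and 2.43e-07 in HG-SIG against NC. Rbmx fell from 63.3 ± 1.99 to 43.7 ± 1.63 CPM in HG-SIG against HG (edgeR adjusted p 8.68e-07).

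Nuclear speckle and splicing proteins, which share their bodies with Malat1, gave 8 higher, 0 lower and 20 not called of 28 in HG against NC (median log2 fold change 0.07). Of these 28, 0 were higher, 16 lower and 12 not called in HG-SIG against HG (median -0.15), and by library size alone 7 were higher and 4 lower. The splicing regulators Srsf6 (308 ± 4.29 to 387 ± 1.96 CPM, edgeR adjusted p 9.39e-06), Srsf7 (239 ± 4.40 to 297 ± 8.43 CPM, 1.92e-05) and Srsf3 (506 ± 14.1 to 597 ± 3.95 CPM, 0.000268) rose in HG against NC. Ddx39b, an RNA helicase of splicing and export, fell from 265 ± 5.79 to 192 ± 6.63 CPM in HG-SIG against HG (edgeR adjusted p 9.90e-07). Factors of noncoding RNA 3′ ends, decay and export gave 2 higher, 0 lower and 16 not called of 18 in HG against NC, and 4 higher, 6 lower and 8 not called in HG-SIG against HG. By library size alone the latter were 8 higher and 0 lower. Parn, a poly(A) nuclease that trims H/ACA snoRNAs, rose from 34.6 ± 1.65 to 46.2 ± 0.354 CPM in that comparison (log2 fold change 0.41 ± 0.05, edgeR adjusted p 1.35e-05).

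**Figure D4:**
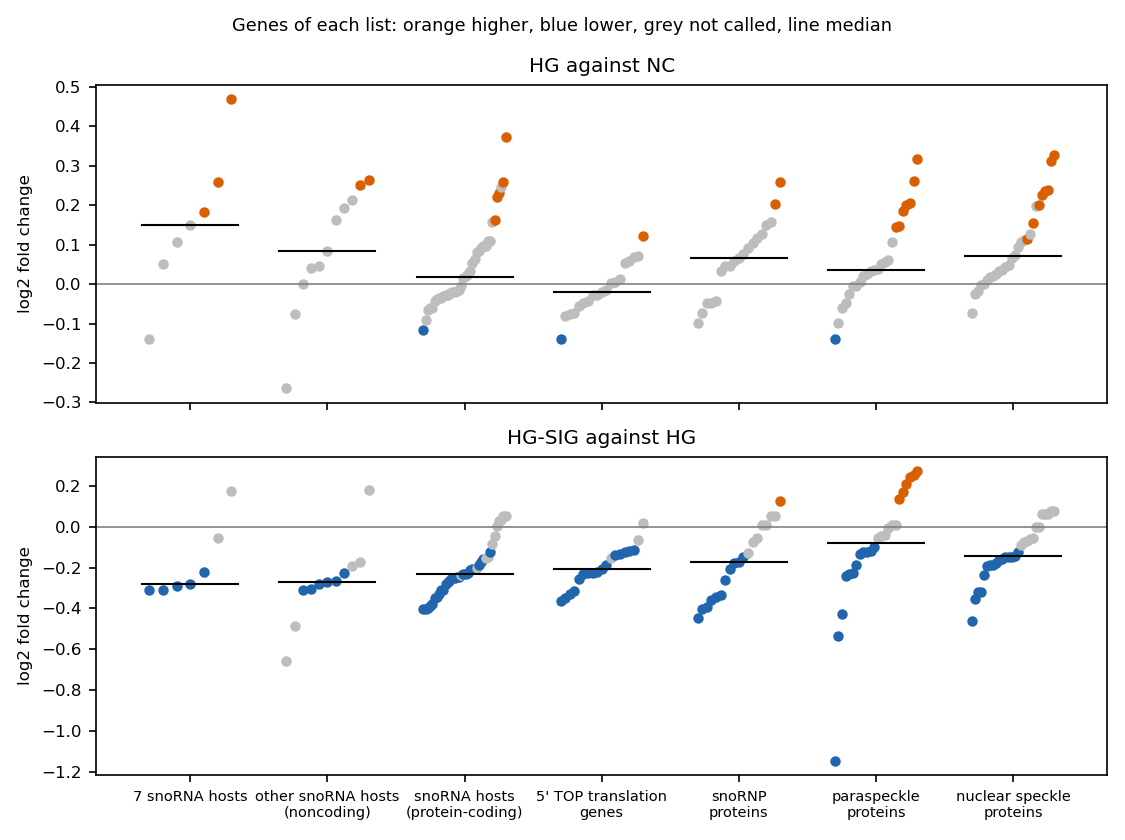
Log2 fold changes (vertical axes) of the single genes of 7 lists in HG against NC (top) and HG-SIG against HG (bottom), scaled by TMM; orange points were called higher, blue points lower and grey points not called, and black lines are list medians. In the bottom panel the 7 hosts (median -0.28), the other noncoding hosts (-0.27) and the protein-coding hosts (-0.23) lie mostly below 0, where by library size alone 0 of the 7 hosts were called lower; Pspc1 is the lowest paraspeckle point at -1.15.

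Among 17 other long noncoding RNAs tested of 30 listed, 2 were higher, 4 lower and 11 not called in HG against NC (median log2 fold change -0.13), and 5 higher, 6 lower and 6 not called in HG-SIG against HG (median -0.11). By library size alone the latter counts were 5 higher and 2 lower. Dubr had 53.1 ± 2.21, 36.8 ± 0.941 and 30.7 ± 1.89 CPM in NC, HG and HG-SIG (SD, n = 3), and Mir22hg, a microRNA host, had 14.5 ± 1.26, 7.91 ± 0.262 and 6.23 ± 0.373 CPM. Both fell in HG against NC (edgeR adjusted p 6.10e-06 and 4.06e-06) and were lower in HG-SIG than in NC (4.03e-08 and 5.69e-08). Norad, a cytoplasmic RNA that binds Pumilio proteins, rose from 212 ± 5.80 in HG to 247 ± 3.71 CPM in HG-SIG (edgeR adjusted p 0.000145).

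The nearest tested genes on either side were read from the same fit. Frmd8, 4224 bp from Neat1, was not called in any comparison (edgeR adjusted p 0.344, 0.358 and 0.855). Slc3a2, the heavy chain of an amino acid transporter, starts on the opposite strand 106 bp from Snhg1. It fell from 183 ± 1.51 to 133 ± 1.81 CPM in HG against NC (log2 fold change -0.46 ± 0.03, edgeR adjusted p 2.41e-07) and was at 136 ± 0.432 CPM in HG-SIG, not called different from HG (0.434). Trnau1ap, 739 bp from Snhg12 on the opposite strand, rose in HG-SIG against HG (0.31 ± 0.06, edgeR adjusted p 0.00142), where Snhg12 fell.

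Genes with the most similar profile were sought among 9725 named genes whose average log2 CPM was at least 2, by Pearson's r of log2 CPM over the 9 libraries. These r describe libraries that share 3 groups, and the best of so many genes is high by construction. For Neat1 they were 2610203C22Rik (r = 0.996) and Plscr3, a mitochondrial phospholipid scramblase (0.995). Plscr3 had 26.1 ± 1.82, 22.6 ± 0.445 and 17.0 ± 0.212 CPM in NC, HG and HG-SIG (SD, n = 3). For Snhg5 they were Fes, a myeloid tyrosine kinase (0.989), and Adamts10 (0.980), for Snhg6 Map3k14 (0.982) and Alg8 (0.947), for Gas5 Foxred1 (0.979) and Dph6 (0.933), and for Snhg1 Kmt2d (0.978) and Dus3l (0.973). For Malat1 they were Tmem245 (0.961) and Usp6nl (0.954), for Snhg12 Cdc45 (0.956) and Mrps24 (0.951), for Snhg8 Nthl1 (0.954) and Chchd10 (0.945), and for Snhg3 Gpn2 (0.934) and Vps25 (0.920).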

How the data were processed

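The authors deposited read counts per gene, 100% of them whole numbers. The submitters' processing notes name Bowtie2 2.3.5, the counter RSEM and the build mm10, so the authors may have rounded estimated counts. Neither strand setting nor annotation release is stated there. Library totals of 23285821 to 31571578 counts put a floor of 3 counts at 0.0894 to 0.132 CPM; the floor covers counting error only. Nothing in the labels says that replicates were separate cultures, so the spread behind the p-values may be technical.

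After filterByExpr by group, which kept 13311 genes, and TMM scaling, edgeR 4.0.16 (R 4.3.3) fitted 1 mean per group to all 9 libraries. The 3 comparisons used its quasi-likelihood test with Benjamini-Hochberg adjustment across the 13311 genes, and a call is an adjusted p under 0.05. Each standard error is the fold change divided by the root of F, and intervals are at 95%. RPKM used exon lengths of GENCODE M21, in which 18591 of 18631 Ensembl identifiers were found. The members and lists were chosen with earlier results of these data known. Named genes were every member, up to 3 called genes with the lowest p per list and comparison, 2 genes most alike per member, and nearest tested neighbours. Counts for HG against NC were also simulated (13166 genes). There the edgeR test recovered 55.1% of changes of 0.25 on the log2 scale and 96% of changes of 1, with 3.09% of calls false. Few genes were changed in the simulation, with random signs and a spread taken from the trend over all genes. In the data 29.5% of genes were called in HG against NC, so these rates need not hold there. No recovery was measured for the comparisons with HG-SIG. Alternatives were DESeq2 size factors, library size alone, DESeq2 1.42.0, limma 3.58.1 on log2(TPM + 1), no filter, 2 groups at a time, a replicate block and leaving out each library.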

Additional observations from a re-analysis of the deposited data

How the results depend on the processing

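Over 432 values (9 RNAs, 3 comparisons, 16 alternatives), 365 kept direction and call, 32 lost the call, 15 gained one and 20 changed sign. The cause was not tested. The number of the 9 RNAs called in HG against NC was 4 and ranged from 2 to 5 when a library was left out, with 2 without NC replicate 2 and 2 without HG replicate 3. In HG-SIG against HG it was 6, ranged from 4 to 7 on leaving out a library, and was 2 by library size alone and 3 by limma on log2(TPM + 1). In HG-SIG against NC it was 3, ranged from 1 to 3 on leaving out a library (1 without NC replicate 2 or 3 or HG-SIG replicate 1 or 2), and was 6 by limma on log2(TPM + 1). That limma fit moved the median of all genes up by 0.20 and 0.23 in these comparisons and raised the share of higher calls to 81.9% and 80.2%. The counts of all genes called moved by less than 1.5 times: 3927, 6989 and 7801, with 3062 to 4000, 6193 to 7147 and 7106 to 8191 on leaving out a library.

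Signs changed as follows (log2 fold changes). By library size alone and by limma, in that order, HG-SIG against NC gave 0.15 and 0.20 for Gas5, 0.027 and 0.070 for Snhg1, and 0.17 and 0.21 for Snhg5, and HG-SIG against HG gave 0.10 and 0.15 for Snhg8. On leaving out a library, HG-SIG against NC gave 0.0076 for Gas5 without NC replicate 1 (range -0.094 to 0.0076). For Snhg5 it gave 0.032 without NC replicate 3, 0.018 without HG-SIG replicate 1 and 0.032 without HG-SIG replicate 2 (range -0.11 to 0.032). For Snhg3 it gave -0.028 without NC replicate 3 and -0.032 without HG-SIG replicate 2 (range -0.032 to 0.13), and for Snhg8 -0.0013 without NC replicate 3 (range -0.0013 to 0.076). Malat1 gave -0.14 in HG against NC without HG replicate 3 (range -0.14 to 0.34), and in HG-SIG against HG -0.029 without HG replicate 1 and -0.0019 without HG-SIG replicate 3 (range -0.029 to 0.43). Snhg6 gave -0.0040 in HG against NC without NC replicate 1 and -0.011 without HG replicate 1 (range -0.011 to 0.12). All of these values had been uncalled by TMM except those of Snhg1. Snhg6 in HG-SIG against NC was not called by DESeq2 (adjusted p 0.0739).

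The replicate numbers were not shown to pair the libraries: deviations of same-numbered libraries correlated at -0.0027 to 0.0988, other pairs at -0.0768 to 0.0408, and 8 of 9 libraries correlated best with a library of their own number, a hint from the data and not from the design. With the replicate block, 5 of the 9 RNAs and 4663 genes were called in HG against NC, 8 and 7563 in HG-SIG against HG, and 4 and 8282 for the remaining comparison. Malat1 was then called higher in HG-SIG against HG (0.18, edgeR adjusted p 0.0458) and against NC (0.30, 0.00285), Snhg3 higher in HG-SIG against HG (0.18, 0.0359) and Snhg1 higher in HG against NC (0.15, 0.00884); Snhg8 was not called. Snhg6, the member with the fewest counts, had 172 to 231 in a library.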
